A study of Homo sapiens with 12 samples.

Results

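The 9 genes described here encode phospholipid flippases and their shared subunit: the P4-ATPases ATP8A1, ATP8B1, ATP8B2, ATP9A, ATP9B, ATP10D, ATP11A and ATP11B, and TMEM30A, also called CDC50A. They were taken by symbol from the 40929 gene symbols counted in each library, and all 9 were found in all 12 libraries. The set was proposed with ATP8A1 in view, because of its difference between cells given both treatments and untreated cells. For that comparison no p-value of a member is therefore printed, and the calls of members given for it below are a description and no support. A p-value is printed for ATP8A1 in only 2 of the other comparisons, which are named where they are given. Where counts of the set below include ATP8A1 in comparisons that use the NG or LGCAR libraries, its part is a description and no support.

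The RNA came from MDA-MB-231, a line of triple-negative breast cancer cells, labelled wild type and of epithelial cell type, and kept for 48 h in RPMI medium with 10% fetal bovine serum. The NG group had 10 mM glucose and the LG group 5 mM, both without cariporide, an inhibitor of the sodium-proton exchanger NHE1. The CAR group had 10 mM glucose with 25 µM cariporide, and the LGCAR group 5 mM glucose with 25 µM cariporide. Each group had 3 libraries of a single cell line, and the labels do not say whether these were grown apart. The p-values measure the spread between these libraries, which may be technical.

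Cell membranes keep different lipids on their 2 faces, and P4-ATPases maintain this asymmetry by using ATP to move phospholipids from the outer or lumenal leaflet to the cytosolic one. Most of them leave the endoplasmic reticulum and work only when bound to a TMEM30 protein, whereas ATP9A and ATP9B do not need one. When phosphatidylserine is no longer held inside, or when a scramblase lets it out, it marks a cell for engulfment by phagocytes. ATP8A1 is a phosphatidylserine flippase of the recycling endosome and plasma membrane.

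ATP8A1 lies on the minus strand of chromosome 4 at chr4:42408373-42657105 of GRCh38.p14, and ATP10D lies on the plus strand of the same chromosome at chr4:47485275-47593486. The 250 bases before the RefSeq start of each are shown because ATP8A1 had the largest differences from NG among the 9 genes and ATP10D, a member on the same chromosome, had small ones. Both run 5′ to 3′ on the strand of the gene, at chr4:42657106-42657355 and chr4:47485025-47485274. Capitals mark the GC box, read as GGGCGG on this strand and as its reverse complement for the other, and the CCAAT box, read in the same way.
ATP8A1: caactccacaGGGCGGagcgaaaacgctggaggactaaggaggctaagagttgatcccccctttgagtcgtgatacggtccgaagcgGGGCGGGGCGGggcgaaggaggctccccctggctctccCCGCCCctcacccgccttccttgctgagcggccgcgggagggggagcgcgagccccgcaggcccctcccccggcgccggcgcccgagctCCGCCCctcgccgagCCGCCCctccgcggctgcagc
ATP10D: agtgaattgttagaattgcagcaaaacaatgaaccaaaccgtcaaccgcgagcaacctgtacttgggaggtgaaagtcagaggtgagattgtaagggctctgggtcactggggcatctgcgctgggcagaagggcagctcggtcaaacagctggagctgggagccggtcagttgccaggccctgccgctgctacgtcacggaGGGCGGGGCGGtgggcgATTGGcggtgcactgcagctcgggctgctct
With both strands searched and overlapping matches counted, the ATP8A1 window held 6 GC boxes and was 74.4% G and C, and the ATP10D window held 2 GC boxes and 1 CCAAT box at 60.0% G and C. At least 1 GC box stood in 42.6% of the 35116 RefSeq promoter windows of this length, and 6 or more in 2.22%. The CCAAT box stood in 32.0% of them. The ATP8A1 window held no CCAAT box, none of the letters TATAAA of the TATA box, present in 10.7% of windows, and no E-box CACGTG, present in 6.34%. Windows were found for 6 of the 9 members: ATP8A1, ATP8B2, ATP9A, ATP9B, ATP10D and ATP11A. The ATP9A window held 4 GC boxes at 89.2% G and C, that of ATP9B 3 at 71.6% and that of ATP11A 1 at 81.6%. Those of ATP8B2 held 0 at 56.4% and 3 at 78.0%. These matches describe letters only, and no binding was measured.

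The libraries held between 18069004 and 24837409 counts, and all 9 members passed the filter on low counts that left 15104 genes for testing. Counts of ribosomal RNA made up between 7.10% and 11.5% of a library, and genes varied between replicates by 6.94% (edgeR's common coefficient of variation). Markers of both mesenchymal and epithelial cells were present: VIM stood between 1610 and 1860 CPM (counts scaled by TMM to a common library size) and ZEB1 between 55.4 and 70.3, and the keratins KRT8 and KRT18 between 427 and 506 and between 331 and 434 CPM. CDH1 did not exceed 2.47 CPM, ERBB2 ran from 55.3 to 67 CPM, and PGR, KRT5 and CD3E were at 0 in all 12 libraries. Of 6 markers for leukocytes, endothelium and smooth muscle only CD68 was above 3.14 CPM in any library, at 53.9 to 73.2 CPM, and their summed level ran from 62.9 to 65.6 CPM in NG libraries, from 57.0 to 64.1 in CAR libraries, from 72.0 to 78.2 in LG libraries and from 64.0 to 66.9 in LGCAR libraries. Libraries of bulk RNA give shares of the RNA, so fewer cells with a transcript and less of it per cell cannot be told apart.

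Levels of different genes were compared after division of CPM by the length of the merged exons (RPKM). The shared subunit TMEM30A was the most abundant, at a mean of 51.7 RPKM over the 12 libraries with a range of 48.0 to 57.4. ATP11B, a phosphatidylserine flippase of endosomes, followed at 10.9 RPKM (9.41 to 12), and ATP10D, which moves glucosylceramide, at 10.2 RPKM (8.95 to 11.2). ATP8B1, a phosphatidylcholine flippase whose loss in the liver causes inherited cholestasis, stood at 5.68 RPKM (4.76 to 6.71). ATP11A, a flippase of the plasma membrane, stood at 5.14 RPKM (4.61 to 5.84). ATP9A stood at 2.53 RPKM (2.10 to 2.91), ATP8B2 at 1.88 (1.60 to 2.12) and ATP9B at 1.27 (1.09 to 1.44). ATP8A1 was the least abundant at 0.408 RPKM (0.25 to 0.567), on 66 to 128 counts per library. In this order ATP11B and ATP10D overlapped in their library ranges, as did ATP8B1 with ATP11A and ATP9A with ATP8B2, and the other neighbours did not. With the longest transcript as the length, ATP11A came before ATP8B1 and ATP9B before ATP8B2.

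**Figure D1:**
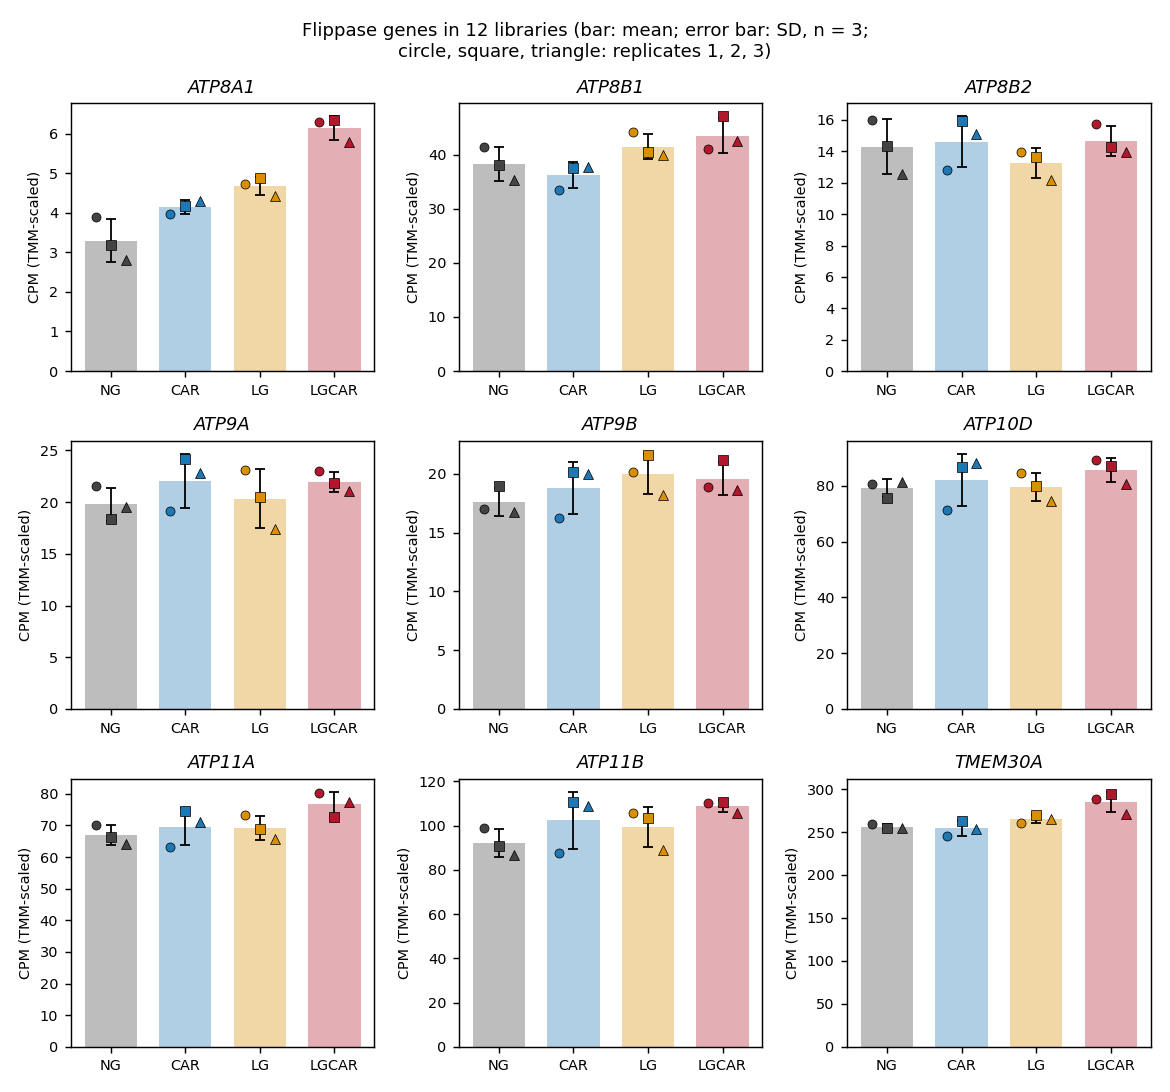
Levels of the 9 flippase genes in CPM (vertical axes from 0) in the 4 groups, with bars for the mean of 3 libraries, error bars for the SD and 1 point per library. ATP8A1 steps up from NG (3.30 CPM) to LGCAR (6.14 CPM) with no overlap between any groups, while most other panels are nearly flat.

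ATP8A1 was lowest in untreated cells, higher with either treatment, and highest with both. The 3 NG libraries held 3.89, 3.19 and 2.81 CPM, a mean of 3.30 ± 0.549 (SD, n = 3). With cariporide at 10 mM glucose the values were 3.96, 4.16 and 4.31 CPM, a mean of 4.15 ± 0.173 (SD, n = 3). At 5 mM glucose without the drug they were 4.73, 4.87 and 4.43 CPM, a mean of 4.68 ± 0.227 (SD, n = 3). Cells given both had 6.29, 6.35 and 5.80 CPM, a mean of 6.14 ± 0.301 (SD, n = 3). No library of one group fell within the range of another group, although the highest NG library and the lowest CAR library lay close together at 3.89 and 3.96 CPM. Of the 15104 tested genes, 11 (0.0728%), ATP8A1 among them, had all 3 NG libraries below and all 3 LGCAR libraries above every other library. ATP8A1 was chosen for its values in NG and LGCAR, so its place among these 11 is a description and no support.

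On the log2 scale ATP8A1 was 0.90 higher in LGCAR than in NG (SE 0.129), a 1.87-fold difference, and this value ran from 0.75 to 1.06 over the 23 other settings that gave one. The values for the single treatments against NG were 0.33 (SE 0.131) in CAR and 0.51 (SE 0.130) in LG, and they share the NG libraries with that comparison. LGCAR was higher than LG by 0.39 (SE 0.123) and higher than CAR by 0.57 (SE 0.124), and both share the LGCAR libraries with it. The share of ribosomal RNA counts was 9.325%, 9.835% and 11.47% in the LGCAR libraries. That was above every CAR library (7.099%, 8.533% and 7.981%) and every LG library (9.057%, 9.0% and 7.906%), while NG overlapped LGCAR. Treatment and this share thus cannot be told apart in these 2 comparisons. With the share as a covariate the difference from CAR was 0.40 and that from LG 0.29, and the part of that share in the result was not tested further.

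Of the 7 contrasts of ATP8A1, LG against CAR shares no library with the one that the gene was chosen from. LG exceeded CAR by 0.17 on the log2 scale (SE 0.125, 95% interval -0.09 to 0.44), which was not called by edgeR's quasi-likelihood test (Benjamini-Hochberg adjusted p = 0.593). The interaction, which subtracts the difference between CAR and NG from that between LGCAR and LG, was 0.06 (SE 0.181, interval -0.32 to 0.44, edgeR adjusted p = 1). The interaction uses the NG and LGCAR libraries that ATP8A1 was chosen from. Its estimate is uncorrelated with their difference only if both groups vary alike, as the fit assumes. On the log2 scale of these contrasts the NG libraries spread more widely (1.96, 1.67 and 1.49) than the LGCAR libraries (2.65, 2.67 and 2.54). The log2 differences with the drug, 0.33 at 10 mM and 0.39 at 5 mM glucose, were thus not told apart by this test, and its interval also holds differences as large as either of them.

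**Figure D2:**
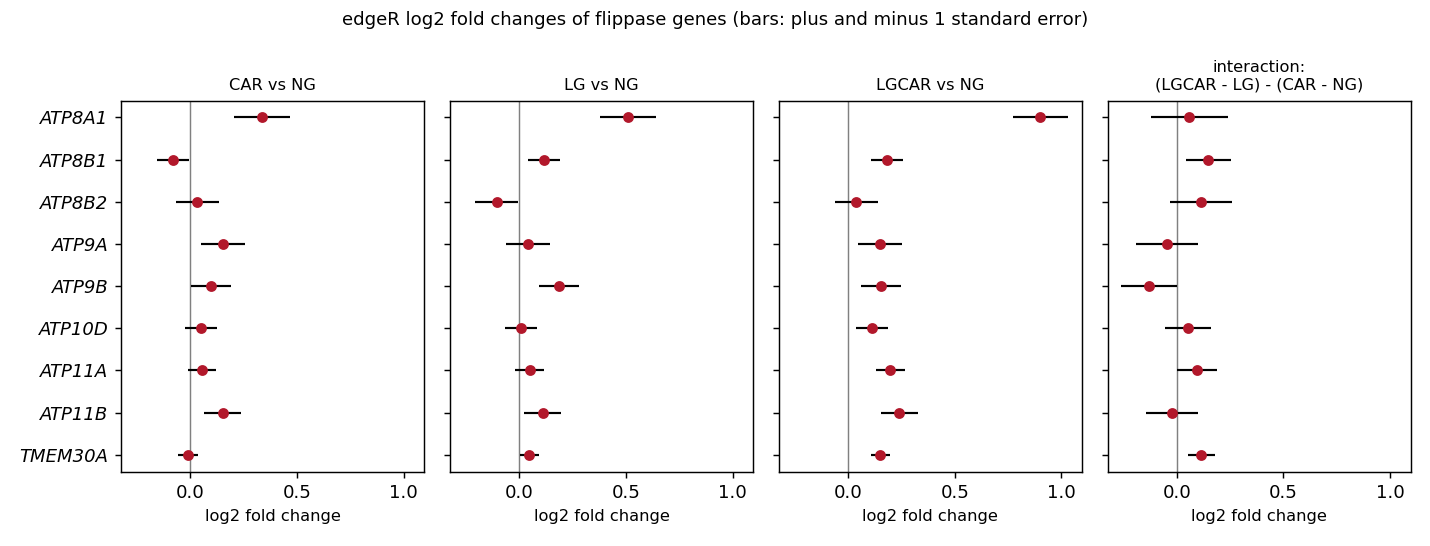
Log2 fold changes of the 9 flippase genes from edgeR (horizontal axes, points) with bars of 1 standard error to each side, for CAR, LG and LGCAR against NG and for the interaction. ATP8A1 lies at 0.33, 0.51 and 0.90 in the first 3 panels and at 0.06 in the last, and the other 8 genes stay between -0.13 and 0.24 in all 4.

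TMEM30A, the partner that ATP8A1 needs to leave the endoplasmic reticulum, had smaller differences. The untreated libraries held 259.5, 254.5 and 254.7 CPM and the CAR libraries 245.9, 263.3 and 253.6 CPM. The LG libraries held 260.0, 269.3 and 265.5 CPM, and those with both treatments 288.8, 294.1 and 271.5 CPM. All 3 LGCAR libraries were thus above every other library, and CAR overlapped both NG and LG. Against NG the LGCAR value was 0.15 higher on the log2 scale (SE 0.046). The difference between LGCAR and CAR was 0.16 (SE 0.046, edgeR adjusted p = 0.0831) and that between LGCAR and LG 0.10 (SE 0.046, edgeR adjusted p = 0.406), neither of them called by edgeR. DESeq2 called the difference between LGCAR and CAR (DESeq2 adjusted p = 0.0316).

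The endosomal flippase ATP11B held 98.9, 90.8 and 86.6 CPM in NG and 110.2, 110.5 and 105.7 in LGCAR, a log2 difference of 0.24 (SE 0.0862). Its single treatments were wider, at 87.5, 110.7 and 108.7 CPM in CAR and 105.7, 103.4 and 88.8 in LG. The low value of each came from CAR replicate 1 and LG replicate 3, and both groups overlapped NG. For ATP11A of the plasma membrane the 3 NG libraries were at 70.3, 66.4 and 64.1 CPM and the LGCAR libraries at 80.3, 72.8 and 77.3, a log2 difference of 0.20 (SE 0.0663). Its CAR libraries ran from 63.3 to 74.5 CPM and its LG libraries from 65.6 to 73.2, which overlapped both other groups.

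ATP8B1 ran from 35.4 to 41.5 CPM without treatment and from 33.4 to 37.7 CPM with cariporide. At 5 mM glucose it ran from 39.9 to 44.2 CPM without the drug and from 41.0 to 47.2 CPM with it. It was the one member besides ATP8A1 in which both 5 mM groups lay wholly above CAR: LG by 0.20 on the log2 scale (SE 0.0733, edgeR adjusted p = 0.219) and LGCAR by 0.26 (SE 0.074, edgeR adjusted p = 0.0825), neither called. Its paralogue ATP8B2, another phosphatidylcholine flippase, ran from 12.2 to 16.0 CPM over all 12 libraries. Its largest log2 difference was 0.15 between LGCAR and LG, where the groups did not overlap and the test made no call (edgeR adjusted p = 0.533).

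The Golgi and endosome proteins ATP9A and ATP9B differed little between groups. ATP9A averaged 19.79 ± 1.62 CPM in NG, 22.04 ± 2.6 with the drug alone, 20.35 ± 2.84 at lower glucose alone and 21.97 ± 0.968 with both (SD, n = 3 each). ATP9B averaged 17.57 ± 1.2, 18.79 ± 2.21, 19.97 ± 1.71 and 19.57 ± 1.4 CPM in the same order (SD, n = 3 each). For ATP9B the largest log2 difference was 0.19 between LG and NG (SE 0.0924, edgeR adjusted p = 0.354). ATP10D averaged 79.2 ± 3.10, 82.0 ± 9.34, 79.7 ± 5.09 and 85.6 ± 4.34 CPM (SD, n = 3 each), with overlapping groups in every pair of groups. Neither of these paralogues nor ATP10D had a call in any comparison.

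Counted over the set, none of the 9 genes was called by edgeR in CAR against NG, where 0.0% of all tested genes were called. At an unadjusted p under 0.05 there were 1 member, ATP8A1, and 684 of all genes, and DESeq2 called none of the members and 2 genes in all. In LG against NG no member was called, beside 1.73% of all genes, with 1 member, ATP8A1, and 2303 of all genes at an unadjusted p under 0.05, and DESeq2 called 0 members and 380 of all genes. ATP8A1 was chosen from a difference that uses the NG libraries of both comparisons. In LGCAR against NG, the comparison behind the choice, ATP8A1 and TMEM30A were called, 2 of 9, beside 8.75% of all genes, and nothing is read from this count. The call of TMEM30A was lost in 16 of 24 other settings, among them 10 of the 12 in which 1 library was left out.

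In LGCAR against LG no member was called by edgeR, beside 0.00662% of all genes, with 3 members (ATP8A1, which was chosen from the LGCAR libraries, and 2 others) and 1801 of all genes at an unadjusted p under 0.05. DESeq2 called 0 members there and 20 of all genes. LGCAR against CAR had 1 call, ATP8A1, beside 1.65% of all genes, and this comparison shares the LGCAR libraries with the one that the gene was chosen from. The edgeR call of ATP8A1 was lost in 10 of 23 other settings, among them the 7 without NG replicate 2, or without any 1 of the CAR or LGCAR libraries. At an unadjusted p under 0.05 there were 4 members, ATP8A1 and 3 others, and 2656 of all genes. DESeq2 called 2 members there, ATP8A1 and TMEM30A, and 419 of all genes. LG against CAR had no member called, beside 1.77% of all genes, with 1 member, ATP8B1, and 2085 of all genes at an unadjusted p under 0.05, and DESeq2 called 0 members and 355 of all genes. The interaction had none either, beside 0.00662% of all genes, with 0 members and 473 of all genes at an unadjusted p under 0.05, and DESeq2 called 0 members and 5 of all genes.

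Groups that did not overlap were counted as well, beside the share of all tested genes that were higher without overlap. The first group lay wholly above the second for ATP8A1 alone, 1 of 9, in CAR against NG (4.44%) and for ATP8A1 and TMEM30A, 2 of 9, in LG against NG (9.86%). Between LGCAR and NG it did for ATP8A1, ATP11A, ATP11B and TMEM30A, 4 of 9 (20.7%), and in LGCAR against LG for ATP8A1, ATP8B2, ATP11B and TMEM30A, 4 of 9 (10.9%). In LGCAR against CAR it did for ATP8A1, ATP8B1 and TMEM30A, 3 of 9 (13.4%), and in LG against CAR for ATP8A1 and ATP8B1, 2 of 9 (9.22%). These comparisons share libraries, so the counts are not independent of each other.

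Small positive differences were common among the members. The 9 genes had a median log2 fold change of 0.06 in CAR, 0.05 in LG and 0.15 in LGCAR, each against NG, where the medians of all tested genes were 0.00, 0.01 and 0.01. They were above 0 for 7, 8 and 9 of the 9 genes, beside 50.5%, 51.9% and 51.7% of all genes, and these comparisons share the NG libraries. Between LGCAR and CAR the median was 0.09, with 8 of 9 above 0. With the share of ribosomal RNA counts as a covariate it was 0.03, with 5 of 9 above 0. Without CAR replicate 1 it was -0.01, with 4 of 9 above 0. Between LG and CAR the median was -0.01, with 4 of 9 above 0, and its sign also turned on single libraries. It was 0.04 without CAR replicate 2 (7 of 9 above 0), 0.01 without CAR replicate 3 (7 of 9) and 0.02 without LG replicate 3 (6 of 9), and -0.07 without CAR replicate 1 (3 of 9). The median in CAR against NG was 0.14 without CAR replicate 1 and 0.01 without CAR replicate 2, and that in LG against NG was 0.14 without LG replicate 3 and 0.10 without NG replicate 1.

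Among the replicates of a group, where no treatment differed, the members often lay on the same side of their means. In CAR replicate 1 all 9 lay below their CAR mean, with a median of -0.18 on the log2 scale, and in CAR replicate 2 none did. In LG replicate 3, NG replicate 3 and LGCAR replicate 3, 8 of 9 lay below their group means, with medians of -0.10, -0.07 and -0.06. In NG replicate 1 only ATP9B lay below, 1 of 9, with a median of 0.10. Over all tested genes the share below the group mean was between 47.9% and 50.6% in every library.

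**Figure D3:**
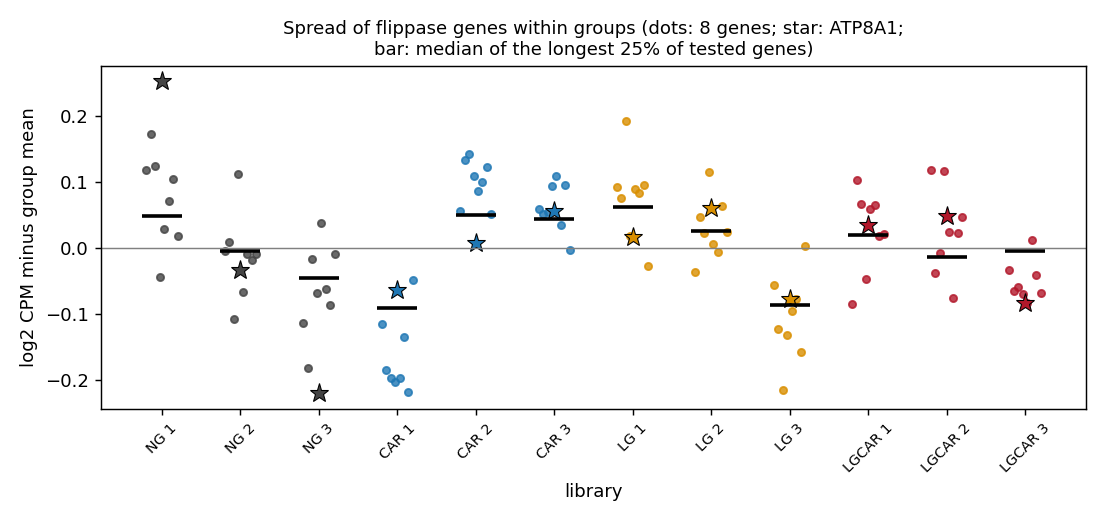
Difference of each flippase gene's log2 CPM from its group mean (vertical axis) in the 12 libraries, with dots for 8 genes, a star for ATP8A1 and a short black bar for the median of the longest 25% of tested genes. All 9 genes lie below 0 in CAR replicate 1, where the bar is at -0.09, and 8 of 9 do in LG replicate 3.

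In NG, CAR and LG this shared spread moved with 2 measured properties of the libraries. These were the median of the longest 25% of tested genes and the share of ribosomal RNA counts. In LGCAR the spread moved with neither of these 2. By merged exon length most members are long, from the 71.5 percentile (ATP8B1) to the 97.0 percentile (ATP9B) of tested genes with a length. TMEM30A, at the 51.3 percentile, is not. ATP8A1, ATP11B and TMEM30A lie at the 11.4, 8.65 and 7.60 percentile of G and C content. In CAR replicate 1 and LG replicate 3 the longest 25% of tested genes lay at medians of -0.09 and -0.09 from its group means, and in NG replicate 3 at -0.05. In LGCAR replicate 3, where 8 of 9 members were low, it lay at -0.0039, above the -0.014 of LGCAR replicate 2, where 3 of 9 were low. The longest genes that were also in the lowest 25% of G and C content lay elsewhere. Their medians in LGCAR replicates 1, 2 and 3 were 0.0174, 0.00145 and -0.02. The members' medians there, 0.0332, 0.0235 and -0.0643, had the same order, and the reason was not tested. The lowest share of ribosomal RNA counts in NG, CAR and LG also belonged to the library with the low members (7.83%, 7.10% and 7.91%), but in LGCAR the library with the low members, replicate 3, had the highest share (11.5%). When a trend on exon length and G and C content was removed from each library, the median of the members between LGCAR and NG went from 0.15 to 0.07, with 7 of 9 above 0 and ATP8B2 and ATP9B below. ATP8A1 kept a log2 difference of 0.75 in that setting. ATP11A went from 0.20 to 0.02 and ATP11B from 0.24 to 0.13, and TMEM30A stayed at 0.15.

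Other P4-ATPases and TMEM30B were at low levels or showed no call. Of 7 listed, 4 were tested and 0 were called in any comparison, with at most 1 at an unadjusted p under 0.05 in any of them and none called by DESeq2. ATP8A2, the closest relative of ATP8A1, stayed between 0.824 and 1.55 CPM, with its highest mean in NG (1.47 CPM). ATP8B4 and TMEM30B did not exceed 0.217 CPM in any library, and ATP10B had no counts in the NG, CAR and LG libraries.

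Scramblases, which let lipids cross a membrane both ways without ATP, had 13 of 18 listed genes tested. VMP1, a scramblase of the endoplasmic reticulum needed for autophagy, was the one called: it rose from 137.1 ± 7.88 CPM in NG to 168.0 ± 9.66 in LG (SD, n = 3 each; log2 0.29, SE 0.054, edgeR adjusted p = 0.00997) and to 163.3 ± 5.96 in LGCAR (log2 0.25, SE 0.0541, edgeR adjusted p = 0.0139). In CAR, VMP1 stood at 155.1 ± 1.17 CPM (SD, n = 3), also above NG without overlap but not called (log2 0.18, SE 0.054, edgeR adjusted p = 0.894). The list's median was 0.06 in LG and 0.05 in LGCAR against NG. In each of these 1 of 13 was called, beside 1.73% of all tested genes in LG and 8.75% in LGCAR. Without NG replicate 1 or LG replicate 2 the first call was lost, and without NG replicate 3, LGCAR replicate 1 or LGCAR replicate 2 the second.

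ABC lipid exporters, which work in the opposite direction to flippases, had 5 of 8 tested. Of these 5, 1 was called in LGCAR against NG, beside 8.75% of all tested genes. ABCA7 rose from 19.0 ± 1.22 CPM in NG to 23.0 ± 1.87 in LGCAR (SD, n = 3 each; log2 0.28, SE 0.0742, edgeR adjusted p = 0.0317), a call lost without NG replicate 2 or 3 or LGCAR replicate 1 or 2. Of 12 genes for the synthesis and turnover of phosphatidylserine and phosphatidylethanolamine, 11 were tested. The 2 called were called in LG against CAR: PCYT2, which makes CDP-ethanolamine, by 0.21 on the log2 scale (SE 0.05, edgeR adjusted p = 0.0410), and ABHD12, a lipase for lysophosphatidylserine, by 0.25 (SE 0.0544, edgeR adjusted p = 0.0284). Both also lay above CAR without overlap in LGCAR, by 0.17 and 0.15 (edgeR adjusted p = 0.0950 and 0.159), and above NG in LG, by 0.15 and 0.18 (edgeR adjusted p = 0.149 and 0.112). Their calls were lost in 10 and 7 of the 12 settings with 1 library left out. These 2 of 11 stand beside 1.77% of all tested genes called in LG against CAR. None of the 6 phosphatidylserine transfer proteins was called by edgeR or DESeq2 in any comparison, with at most 2 at an unadjusted p under 0.05.

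Among 9 trafficking partners the 2 DOP1 proteins, relatives of the yeast partner of the ATP9 orthologue, rose in LGCAR against NG. DOP1B went from 29.5 ± 3.21 to 42.1 ± 3.08 CPM (SD, n = 3 each; log2 0.51, SE 0.115, edgeR adjusted p = 0.0213) and DOP1A from 8.65 ± 0.467 to 11.2 ± 0.763 CPM (log2 0.37, SE 0.108, edgeR adjusted p = 0.0428). The list's median was 0.24, with 7 of 9 above 0 beside 51.7% of all tested genes. The 2 calls of 9 stand beside 8.75% of all tested genes. DOP1B lost its call in 5 and DOP1A in 8 of the 12 settings with 1 library left out, in each case including every LGCAR library.

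P-type ATPases outside the flippases, which pump ions rather than lipids or move other cargo, had a median log2 fold change of 0.11 over 11 tested genes in LGCAR against NG, and those described here were higher. The plasma membrane calcium pump ATP2B4 went from 101.6 ± 6.03 to 139.4 ± 6.14 CPM (SD, n = 3 each; log2 0.46, SE 0.101, edgeR adjusted p = 0.0212), and the copper pump ATP7B from 4.47 ± 0.800 to 6.20 ± 0.659 CPM (log2 0.47, SE 0.136, edgeR adjusted p = 0.0430). These calls were lost in 4 and 9 of the 12 settings with 1 library left out. In LGCAR against NG 3 of the 11 tested genes of this list were called, beside 8.75% of all tested genes.

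The 5 genes whose profile over the 12 libraries lay nearest to that of ATP8A1 were found by the root mean square difference of log2 CPM, centred on each gene's mean, over 12661 genes whose mean was 1 CPM or more. PIK3C2B, a class II phosphoinositide 3-kinase, was nearest at 0.111, followed by the adaptor gene SHC3 at 0.131, ELFN2 at 0.132, the phospholipase C gene PLCE1 at 0.132 and the netrin gene NTNG2 at 0.133. PIK3C2B ran from 3.53 to 4.79 CPM in the NG libraries, from 4.08 to 5.43 in the CAR libraries, from 4.90 to 5.87 in the LG libraries and from 6.29 to 7.36 in the LGCAR libraries, so that its CAR libraries overlapped those of both NG and LG. The other flippase genes were farther from ATP8A1, between 0.246 for ATP11B and 0.316 for ATP8B2. The libraries share their depth and scaling across genes, and the likeness is a description with no test.

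**Figure D4:**
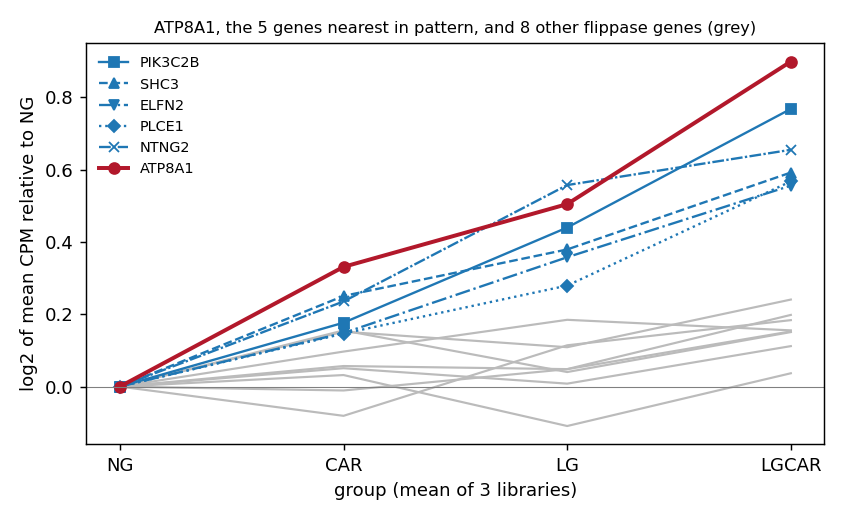
Log2 of the group mean CPM relative to NG (vertical axis) in the 4 groups (horizontal axis) for ATP8A1 in red, the 5 genes nearest to it in blue and the 8 other flippase genes in grey. The blue lines end between 0.56 and 0.77 in LGCAR, below ATP8A1 at 0.90, and the grey lines end between 0.04 and 0.24.

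Exons of ATP8B1, ATP9B, ATP10D and ATP11B overlap a transcript on the opposite strand over 3.11% to 4.87% of their length, and the labels and files do not state whether the counting used strand, so reads of those partners cannot be told apart from theirs. ATP8A1, ATP8B2, ATP9A, ATP11A and TMEM30A have no such overlap in the annotation.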

How the data were processed

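RNA sequencing of 12 libraries was analysed. The deposited values were raw counts for each gene symbol, 1 table per library, which the authors made from libraries of the NEBNext Ultra II Directional kit on Trizol RNA, per the labels' protocols. The submitters' processing notes name fastp, STAR, Salmon, GATK and GRCh38. The sources used here do not give their roles, versions or use of strand. No row without a gene name was left in the totals.

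Genes that passed filterByExpr were tested with edgeR 4.0.16 in R 4.3.3, by its quasi-likelihood test with robust estimates, on TMM-scaled counts, over all 12 libraries with a mean per group, which leaves 8 residual degrees of freedom. P-values were adjusted over all tested genes by the Benjamini-Hochberg method, a gene being called under 0.05. CPM, RPKM, log2 fold changes, standard errors and 95% intervals were computed from this fit, and the script was tested on simulated data. Gene positions and promoter windows come from RefSeq GRCh38.p14, matched by symbol. Exon lengths, transcript lengths, G and C content and exon overlaps come from the GENCODE annotation of GRCh38, also matched by symbol. Lengths and G and C content were found for 13283 of the tested genes (87.9%). Counts of replicates differed by more than sampling noise in every pair (chi-square per degree of freedom from 2.79 to 23.8), so none was taken as a duplicate.

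The 9 members, the other lists and the tests were chosen with earlier results of these data known. Named were the 9 members, up to 3 called genes of each other list by smallest p, and the 5 genes nearest to ATP8A1 in pattern. Alternatives were other scaling, filters, DESeq2 1.42.0, covariates, a replicate block and libraries left out. Results for some genes of the other lists are not reported here.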

Additional observations from a re-analysis of the deposited data

How the results depend on the processing

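ATP8A1 stayed higher in LGCAR than in NG in all 23 alternatives that gave a value. The gene was chosen for this difference in the same libraries, so this is a description and no support. ATP8A1 was not tested where a mean of at least 5 CPM was required, which leaves 8 members. No direction of a called gene was reversed, and of the log2 fold changes of named genes 1735 kept their side of the threshold, 149 lost a call and 20 gained one. The median of the members depended on single libraries: with 1 left out it ran from 0.01 to 0.14 between CAR and NG, 0.04 to 0.14 between LG and NG, 0.13 to 0.20 between LGCAR and NG, 0.06 to 0.17 between LGCAR and LG, -0.01 to 0.15 between LGCAR and CAR, -0.07 to 0.04 between LG and CAR, and 0.02 to 0.12 in the interaction. Over the other alternatives these medians ran from 0.02 to 0.15, 0.04 to 0.14, 0.07 to 0.22, 0.03 to 0.14, -0.02 to 0.10, -0.04 to -0.01 and -0.14 to 0.07 in the same order. With the longest transcript as gene length, 5 of the 9 members kept their place in the order of levels. For these counts of calls the cause of a change was not tested.

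Called members of the 9 in LGCAR against NG were 1 with RLE size factors, library totals alone, ribosomal RNA genes left out, no filter, a mean of at least 5 CPM, the replicate block, or NG 1 and LGCAR 3 left out together. They were 4 with only the groups compared and 5 with CAR 1 and LG 3 left out together, a choice made after seeing the data, as was the trend on length and G and C content. In LGCAR against CAR they were 0 with a mean of at least 5 CPM, the replicate block, the ribosomal RNA covariate, or NG 1 and LGCAR 3 left out, 2 by DESeq2 and 3 with the trend removed. In CAR against NG they were 2 without CAR 1 and LG 3 (ATP9A and ATP11B). In LG against NG they were 1 with the covariate and 3 without CAR 1 and LG 3. With 1 library left out they ranged from 1 to 4 between LGCAR and NG, from 0 to 1 between LGCAR and CAR, from 0 to 1 between LG and NG, and were 0 in the other comparisons.

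Of all tested genes, called in CAR against NG were 2 by DESeq2, 2 without NG 1 and LGCAR 3 and 1082 without CAR 1 and LG 3. In LG against NG (261) they were 118 with only the groups compared, 586 with the covariate, 87 without NG 1 and LGCAR 3, 1765 without CAR 1 and LG 3 and 530 with the trend removed. In LGCAR against NG (1322) they were 3542 with only the groups compared, 263 without NG 1 and LGCAR 3 and 4046 without CAR 1 and LG 3. In LGCAR against LG (1) they were 15 with no filter, 20 by DESeq2, 2 without NG 1 and LGCAR 3, 5 without CAR 1 and LG 3 and 2 with the trend removed. In LGCAR against CAR (249) they were 391 with no filter, 419 by DESeq2, 18 with the covariate, 55 without NG 1 and LGCAR 3, 514 without CAR 1 and LG 3 and 577 with the trend removed. In LG against CAR (268) they were 54 with only the groups compared, 415 with the covariate, 572 without CAR 1 and LG 3 and 583 with the trend removed. In the interaction (1) they were 2 with no filter, 5 by DESeq2, 0 with the covariate, 2 without NG 1 and LGCAR 3 and 0 without CAR 1 and LG 3. With 1 library left out they ranged from 0 to 2 (CAR and NG), 83 to 471 (LG and NG), 136 to 2624 (LGCAR and NG), 1 to 3 (LGCAR and LG), 51 to 448 (LGCAR and CAR), 101 to 635 (LG and CAR) and 1 to 3 (interaction). With library totals alone, 26.8% of the calls in LGCAR against CAR were higher (59.0% with TMM), 69.5% in LG against NG (57.9%) and 54.6% in LG against CAR (70.5%).

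Same-numbered libraries of different groups had correlations of their deviations from -0.169 to 0.152. For differently numbered ones they ran from -0.214 (CAR 2 with LG 3) to 0.291 (CAR 1 with LG 3), so the numbers were not taken to pair the libraries. With the replicate number as a block, 147 genes were called between LG and NG, 682 between LGCAR and NG, 135 between LGCAR and CAR and 160 between LG and CAR. Counts of all genes called were within 1.5 times in the other comparisons under the block.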
